A study of Mus musculus with 11 samples.

Results

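Described here are 10 genes of the integrated stress response in mouse muscle stem cells: the transcription factor genes Atf4, Atf3 and Ddit3 (which encodes CHOP), the feedback and effector genes Trib3, Chac1, Sesn2 and Ppp1r15a, and the metabolic enzyme genes Asns, Psat1 and Mthfd2. They were chosen by name, each gene symbol being matched to 1 Ensembl identifier, and make up 10 of the 48709 genes of the count table. All 10 passed the filter on low counts.

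RNA was sequenced from muscle stem cells (satellite cells, the resident stem cells of skeletal muscle) of C57BL/6 mice that carry Tg:Pax7-nGFP, a nuclear green fluorescent reporter under the control of Pax7 by which the cells can be sorted. Pectoral, forelimb and hindlimb muscle was used in every group, and neither the age of the animals nor their number per library is given. In T0 the muscle was fixed in 0.5% paraformaldehyde for 1 h at 4°C, so the cells were fixed in place. In T3 the cells went through the standard isolation, were sorted and were then fixed in 0.5% paraformaldehyde for 30 min on ice. T5 cells met 2 h more at 37°C and were fixed as in T3. The treatment protocol puts those 2 h on dissected muscle in DMEM before the isolation, whereas the series design puts them after it. T3 against T0 therefore compares isolated cells with cells fixed in the tissue, with a fixation that differs too and cannot be told apart from the isolation, and T5 against T3 adds the 2 h.

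In the integrated stress response, separate kinases that sense different stresses phosphorylate the translation initiation factor eIF2. Protein synthesis then falls in general, while the Atf4 messenger, which carries short upstream reading frames, is translated more. ATF4 binds DNA as a dimer with C/EBP family proteins and switches on genes of amino acid supply, antioxidant defence and feedback, among them further transcription factors such as CHOP and ATF3. In satellite cells, phosphorylation of eIF2 is also known as part of the quiescent state. The counts below are of RNA, and say nothing of eIF2 phosphorylation or of ATF4 protein.

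The element through which ATF4 and C/EBP dimers act is shown in the promoters of the 4 genes that hold its core, TGATGNAA, on either strand. Each window was searched from 250 bases before to 50 bases after a RefSeq transcription start (GRCm38.p6), and is printed from 250 bases before to 30 bases after it, on the strand of the gene, with the matches in capitals.
Asns, chr6:7693180-7693459, minus strand: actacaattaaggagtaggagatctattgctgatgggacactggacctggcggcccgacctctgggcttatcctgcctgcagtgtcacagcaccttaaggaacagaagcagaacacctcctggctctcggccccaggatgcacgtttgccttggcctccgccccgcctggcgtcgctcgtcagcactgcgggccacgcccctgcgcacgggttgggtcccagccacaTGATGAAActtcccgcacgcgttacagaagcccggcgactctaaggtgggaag
Chac1, chr2:119350992-119351271, plus strand: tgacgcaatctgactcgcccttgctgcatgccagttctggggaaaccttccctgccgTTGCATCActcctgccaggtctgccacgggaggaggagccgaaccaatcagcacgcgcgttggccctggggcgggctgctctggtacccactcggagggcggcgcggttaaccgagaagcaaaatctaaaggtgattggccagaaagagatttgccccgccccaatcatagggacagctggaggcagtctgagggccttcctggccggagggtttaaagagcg
Atf3, chr1:191183304-191183583, minus strand: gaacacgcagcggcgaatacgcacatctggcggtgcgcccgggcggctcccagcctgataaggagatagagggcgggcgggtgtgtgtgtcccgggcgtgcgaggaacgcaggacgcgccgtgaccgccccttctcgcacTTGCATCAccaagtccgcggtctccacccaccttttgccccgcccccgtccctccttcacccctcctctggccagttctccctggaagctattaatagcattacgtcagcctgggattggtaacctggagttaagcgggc
Trib3, chr2:152344031-152344310, minus strand: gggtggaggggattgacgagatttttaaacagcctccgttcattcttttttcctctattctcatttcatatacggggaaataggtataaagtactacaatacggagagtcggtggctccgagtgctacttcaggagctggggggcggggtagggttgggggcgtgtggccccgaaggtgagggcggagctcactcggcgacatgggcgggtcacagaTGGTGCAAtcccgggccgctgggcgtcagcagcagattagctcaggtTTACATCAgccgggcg
Counting the start as +1, the core lay at −23 to −16 in Asns, at −193 to −186 in Chac1 and at −110 to −103 in Atf3, the last 2 on the strand opposite to the gene. In Trib3 it lay at +15 to +22 on the opposite strand, and a variant spelled TGGTGNAA lay at −33 to −26; this variant was added to the search after the windows had been seen. The core was present in 4 of the 10 genes and in 3.97% of 32851 promoter windows of the same length, and the variant in 2 of the 10 (Trib3 and Psat1) and in 3.23% of windows.

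A different element stood next to the start of Ppp1r15a. Its window, which holds no TGATGNAA, is shown for the palindromic cyclic AMP response element TGACGTCA, which CREB and ATF family factors recognize, in capitals at −12 to −5.
Ppp1r15a, chr7:45526239-45526518, minus strand: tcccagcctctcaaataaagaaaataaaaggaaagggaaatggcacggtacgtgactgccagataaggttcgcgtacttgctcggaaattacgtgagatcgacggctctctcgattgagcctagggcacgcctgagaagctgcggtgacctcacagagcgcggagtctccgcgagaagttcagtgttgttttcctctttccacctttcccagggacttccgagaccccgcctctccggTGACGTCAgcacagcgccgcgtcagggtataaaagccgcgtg
TGACGTCA occurred in 1 of the 10 genes and in 1.79% of windows. The AP-1 site TGANTCA, bound by Fos and Jun dimers, occurred in 1 of the 10 (Ddit3, −242 to −236) and in 7.81% of windows. These matches are descriptions of letters, not of bound sites.

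The 3 T0 libraries held 49078859 to 67251946 counts, the 4 T3 libraries 52632553 to 72638711 and the 4 T5 libraries 61837170 to 102347035. Of these, T0 libraries had 4.14 to 18.3% on ribosomal RNA loci, T3 libraries 6.45 to 12.6% and T5 libraries 12.02 to 20.3%; what part this share has in the results was not tested. T5 libraries that share a letter were added up, leaving 2 replicates, A and B. Libraries of 1 letter were not the most alike. Chi-square per gene, smaller for more alike counts, was 72.6 within A and 75.3 within B. It was 12.5 between the second library of A and the first of B. SDs over A and B can therefore understate the spread among the 4 T5 libraries, as for Atf4 (229, 266, 267 and 224 CPM). The smallest count of any of the 10 genes was 9 reads (Trib3 in T0 replicate 1, with an exact 95% Poisson interval of 4.12 to 17.1 reads for counting error only). Levels are counts scaled to library size (CPM, on TMM-corrected sizes), given as mean ± SD over replicates, and changes as log2 values ± SE by the quasi-likelihood F test of edgeR, with Benjamini-Hochberg adjustment over 31999 genes. A gene was called at an adjusted p under 0.05. Whether libraries of 1 group came from different animals is not stated, and the p-values then rest only on the spread among these samples, possibly a technical one. The summed level of 10 muscle stem cell markers lay at 5440 to 8293 CPM for T0. It was 2676 to 3318 CPM for T3 and 1784 to 2180 CPM for T5, and none of the 10 was at 0 throughout. Pax7 alone fell from 3613 CPM in T0 to 315 CPM in T3. In T3 against T0, 5 of the 10 were called lower and 2, Sdc4 and Vcam1, higher (22.9 and 15% of all genes). In T5 against T3, 4 were lower and 0 higher (0.888 and 1.28% of all genes).

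All 10 genes were higher in isolated T3 cells than in cells fixed in the muscle, against a background of 15% of all genes called higher and 22.9% called lower. Their median log2 difference was 2.91, and that of all genes tested was 0.05. Every T3 replicate lay above every T0 replicate for each of the 10, as for 16.2% of all genes. In T5 against T3, 7 of the 10 were higher still and none lower, where 1.28% of all genes were called higher and 0.888% lower. The median log2 difference was 0.98 for the 10 and 0.05 for all genes. The 7 were Ddit3, Trib3, Chac1, Sesn2, Asns, Psat1 and Mthfd2, and only Trib3, Chac1 and Asns were called under each of the 12 alternatives run for T5 against T3. In the other 4 of these 7 the call was lost with another scaling or with 1 replicate left out. For Sesn2 it was lost only without T5 replicate B, which leaves 1 T5 replicate. With DESeq2 size factors 4 of the 10 genes were called. Levels in a bulk library cannot tell a change in RNA per cell from a change in the number of expressing cells.

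**Figure D1:**
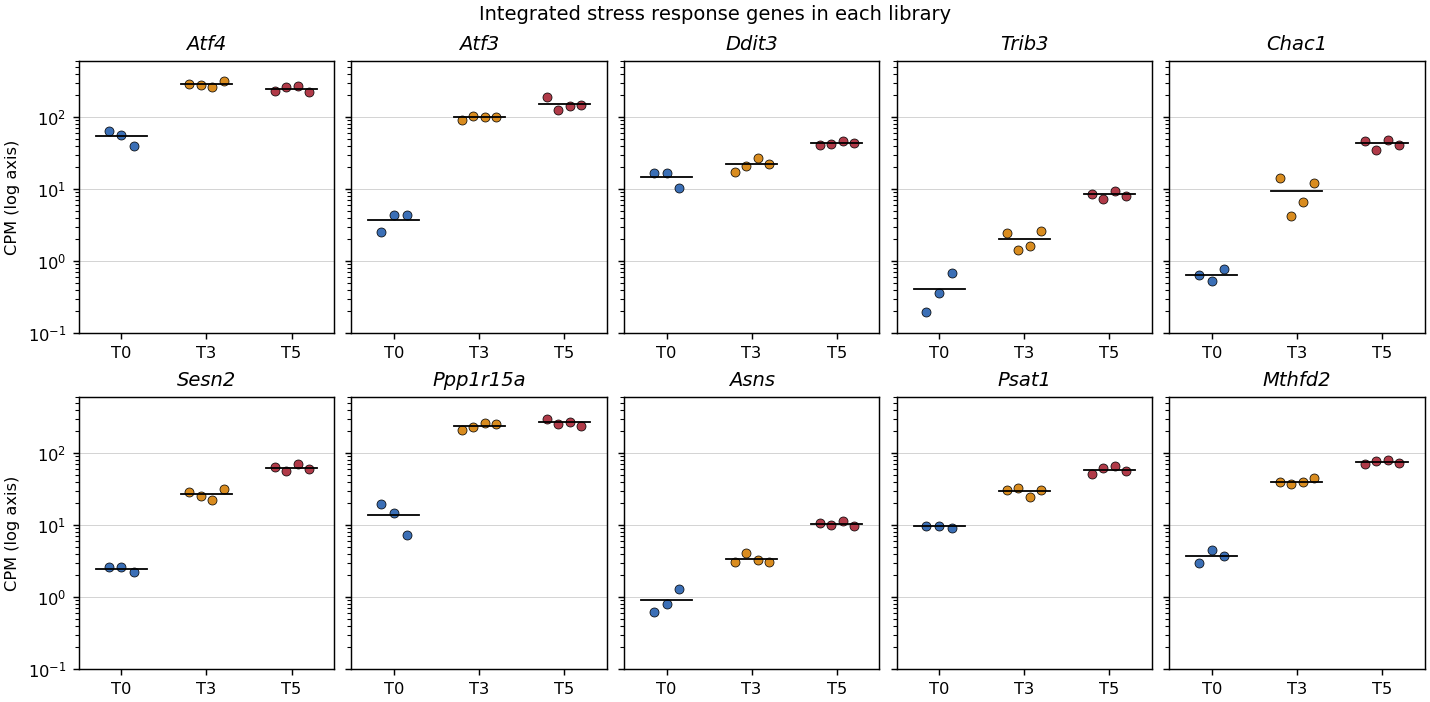
Level of each of the 10 genes in CPM (log axis) in the 3 T0, 4 T3 and 4 T5 libraries. Points are libraries and bars are means over replicates, those of T5 over the 2 added-up replicates; Atf4, Atf3 and Ppp1r15a reach most of their final level in T3, whereas Trib3, Chac1 and Asns climb again in T5.

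Markers of other cells moved as well. The summed level of 10 endothelial markers lay at 256 to 298 CPM for T0, 454 to 553 CPM for T3 and 257 to 277 CPM for T5, and 5 of the 10 were higher in T3 than in T0. That of 12 myofibre markers was 70 to 80.4, 131 to 196 and 113 to 133 CPM, with 11 of 12 higher in T3. Of the 10 fibro-adipogenic progenitor and fibroblast markers 3 were higher and 2 lower (476 to 674, 269 to 492 and 238 to 281 CPM), of the 10 monocyte and macrophage markers 4 were higher (22.9 to 47.7, 36 to 52.6 and 32 to 47.7 CPM), and of the 8 pericyte and smooth muscle markers 1 was higher and 3 lower (151 to 248, 130 to 219 and 132 to 150 CPM). Single genes weighed heavily in these sums. The 2 fibro-adipogenic markers called lower, Gsn (414, 220 and 134 CPM in T0, T3 and T5) and Dpt (127, 76.4 and 36.3 CPM), held most of that sum. The 3 called higher, Col1a1, Col1a2 and Smoc2, reached group means of at most 35.1 CPM. Tek was the highest endothelial marker (155, 227 and 138 CPM). No marker of these lists was at 0 throughout. Of all genes 15% were called higher and 22.9% lower in T3 than in T0. From T3 to T5 no marker of these 5 lists was called higher, and 5 of 10 endothelial, 5 of 12 myofibre and 1 of 10 fibro-adipogenic progenitor and fibroblast markers were called lower. Of all genes 1.28% were called higher and 0.888% lower in T5 than in T3. What part these markers have in the changes of the 10 genes was not tested.

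Among the transcription factors, Atf4 (ENSMUSG00000042406.7, chromosome 15, 80255184 to 80257541, GRCm38) had the highest level per exon length. It stood at 64.3, 56.7 and 40.1 CPM in the T0 libraries, at 287, 278, 260 and 314 CPM in T3 and at 229, 266, 267 and 224 CPM in T5. All isolated libraries were thus far above the fixed ones, while single libraries of T3 and T5 overlapped. Added up, T5 replicates A and B, at 244.5 and 246.2 CPM, lay below every T3 library. The rise from T0 to T3 was 5.30-fold (log2 2.41 ± 0.23, adjusted p = 1.83e-08), and T5 differed from T3 by −0.21 ± 0.24 (adjusted p = 0.717).

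Atf3 (ENSMUSG00000026628.13, chromosome 1, 191170296 to 191218039), which encodes a stress-induced factor of the same family, was low in the fixed tissue. Its level was 2.55, 4.31 and 4.40 CPM in T0 against 92.0, 103, 100 and 101 CPM in T3, a 26.2-fold rise (log2 4.71 ± 0.26, adjusted p = 1.58e-11) that was the largest of the 10 in this comparison. The 4 T5 libraries, at 190, 125, 142 and 149 CPM, all lay above T3. That further difference, log2 0.64 ± 0.23, was not called (adjusted p = 0.19), but was with only T3 and T5 in the fit (adjusted p = 0.00562) or with the 4 T5 libraries as separate replicates (adjusted p = 0.0491).

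Ddit3 (ENSMUSG00000025408.15, chromosome 10, 127290774 to 127296288), whose product CHOP promotes cell death under lasting endoplasmic reticulum stress, behaved differently from Atf4 and Atf3. It was at 16.7, 16.9 and 10.2 CPM in T0 and at 17.2, 21.2, 27.1 and 22.3 CPM in T3, so that the groups almost touched. In T5 it was at 41.2, 41.7, 46.0 and 43.6 CPM, clear of every other library. The first difference, log2 0.59 ± 0.22 (adjusted p = 0.0368), was the smallest of the 10. It lost its call in 7 of 14 alternatives, among them at an adjusted p of 0.0659 with DESeq2 size factors, 0.0532 with DESeq2 and, among left-out libraries, 0.0687 without T0 replicate 3 and 0.0587, 0.133 and 0.0754 without T3 replicates 2, 3 and 4. The second, log2 0.98 ± 0.24 (adjusted p = 0.0291), was lost in 7 of 12, with an adjusted p of 0.121 with DESeq2 size factors, 0.0617 with DESeq2, 0.102, 0.0797 and 0.0815 without T3 replicates 1, 2 and 4, and 0.247 and 0.469 without T5 A or B. The 2 steps together gave a 2.97-fold rise (log2 1.57 ± 0.26, adjusted p = 3.99e-05), which was called under each of the 11 alternatives for T5 against T0. Ddit3 shares 15 bases with the predicted Gm4189 (at most 0.794 CPM) and 68 bases at its end with Mars, a synthetase gene, both on the other strand, and the strand setting of the counts is not given; Mars itself stood at 29.9, 23.5 and 26.5 CPM in T0, T3 and T5 and was called in neither step (adjusted p = 0.189 and 0.752).

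The feedback genes Trib3 and Chac1 were low in fixed tissue and rose in both steps. Trib3 (ENSMUSG00000032715.9, chromosome 2, 152337422 to 152344032) encodes a pseudokinase that restrains ATF4 and CHOP. It was at 0.195, 0.361 and 0.681 CPM in T0, at 2.42, 1.398, 1.59 and 2.61 CPM in T3 and at 8.59, 7.34, 9.44 and 7.99 CPM in T5, with no overlap between groups. The steps were of like size, log2 2.21 ± 0.33 (adjusted p = 1.05e-05) and 2.07 ± 0.31 (adjusted p = 0.000239), and the first was 2.80 without T0 replicate 3, the highest of the fixed libraries.

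Chac1 (ENSMUSG00000027313.3, chromosome 2, 119351229 to 119354381) encodes an enzyme that breaks down the antioxidant glutathione. Among the 10 genes it had the largest change over both steps, from 0.628, 0.532 and 0.782 CPM in T0 to 46.9, 35.4, 48.4 and 41.0 CPM in T5, a 66.4-fold difference (log2 6.05 ± 0.41, adjusted p = 3.54e-10). The T3 libraries were the most scattered of any of the 10 genes in that group, at 14.4, 4.18, 6.69 and 12.0 CPM (coefficient of variation 50.4%), yet lay between both other groups. The steps were log2 3.83 ± 0.36 (adjusted p = 1.86e-08) and 2.23 ± 0.32 (adjusted p = 0.000147).

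Sesn2 (ENSMUSG00000028893.8, chromosome 4, 132492032 to 132510501), a leucine sensor that holds back mTORC1, moved in the same order. Its level was 2.58, 2.59 and 2.21 CPM in T0, 29.1, 25.1, 22.5 and 31.9 CPM in T3 and 63.2, 56.0, 71.1 and 59.9 CPM in T5, again without overlap. The differences were log2 3.47 ± 0.23 (adjusted p = 1.77e-10) and 1.22 ± 0.21 (adjusted p = 0.00178; 0.102 without T5 B).

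Ppp1r15a (ENSMUSG00000040435.12, chromosome 7, 45522916 to 45526268) encodes GADD34, the phosphatase subunit that removes the phosphate from eIF2 and so ends the response. It was at 19.4, 14.5 and 7.28 CPM in T0 and at 212, 234, 264 and 255 CPM in T3, a 17.6-fold rise (log2 4.14 ± 0.30, adjusted p = 5.27e-10). In T5 it was at 296, 253, 270 and 240 CPM, within or near the T3 range, and the difference of 0.15 ± 0.28 was not called (adjusted p = 0.839). Its annotation shares 717 bases with Tulp2 on the other strand, which held 67.4, 79.6 and 75.1 CPM in T0, T3 and T5 and was not called in T3 against T0 (log2 0.24, adjusted p = 0.418).

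The enzyme genes rose in both steps too. Asns (ENSMUSG00000029752.12, chromosome 6, 7675169 to 7693254), which encodes asparagine synthetase, was at 0.628, 0.807 and 1.31 CPM in T0, 3.11, 4.04, 3.28 and 3.10 CPM in T3 and 10.6, 10.03, 11.4 and 9.72 CPM in T5. The 3 groups were separate, with steps of log2 1.86 ± 0.26 (adjusted p = 3.34e-06) and 1.63 ± 0.25 (adjusted p = 0.000393).

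Psat1 (ENSMUSG00000024640.9, chromosome 19, 15904678 to 15947337), an enzyme of serine synthesis, had the highest fixed level of the 3 enzyme genes, also per exon length: 9.76, 9.75 and 9.17 CPM. It reached 31.2, 32.8, 24.3 and 30.9 CPM in T3 and 52.0, 62.9, 65.6 and 57.3 CPM in T5. No groups overlapped, and the steps were log2 1.64 ± 0.20 (adjusted p = 6.37e-07) and 0.99 ± 0.21 (adjusted p = 0.0092). The second lost its call with DESeq2 size factors (adjusted p = 0.0644) and without T5 A (0.167) or B (0.338).

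Mthfd2 (ENSMUSG00000005667.8, chromosome 6, 83305691 to 83325908), an enzyme of mitochondrial one-carbon metabolism, was at 3.01, 4.57 and 3.71 CPM in T0, 39.4, 37.1, 39.6 and 45.0 CPM in T3 and 70.2, 77.6, 79.4 and 72.3 CPM in T5. The groups did not overlap, and most of the change lay between T0 and T3. It was log2 3.42 ± 0.23 (adjusted p = 1.83e-10) against 0.89 ± 0.22 for the second step (adjusted p = 0.0267). The second call was lost in 7 of 12 alternatives, at adjusted p of 0.121 with DESeq2 size factors, 0.0746, 0.0915, 0.0694 and 0.0563 without T3 replicates 1, 2, 3 and 4, and 0.355 and 0.482 without T5 A or B.

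How the total change was divided between the steps set the genes apart. The first step held 110% of the log2 change from T0 to T5 in Atf4, 96.6% in Ppp1r15a, 88.0% in Atf3, 79.3% in Mthfd2 and 74.0% in Sesn2. It held 63.2% in Chac1, 62.4% in Psat1, 53.3% in Asns, 51.6% in Trib3 and 37.8% in Ddit3. A contrast of the second step minus the first, added after seeing the data, was run over all genes. It tests the difference of the 2 steps in log2, not these shares. It was called lower, a smaller second step, for 6 of the 10 genes, where 9.93% of all genes were called lower and 12.8% higher. All 10 genes had been called higher in T3 against T0, which by itself pushes this contrast down. The share of all genes is therefore not a like background for the 6. The 6 were Atf3 (log2 −4.07 ± 0.38, adjusted p = 1.46e-07), Ppp1r15a (−3.99 ± 0.45, adjusted p = 1.99e-06), Atf4 (−2.62 ± 0.37, adjusted p = 2.55e-05), Mthfd2 (−2.53 ± 0.35, adjusted p = 2.21e-05), Sesn2 (−2.25 ± 0.35, adjusted p = 7.08e-05) and Chac1 (−1.60 ± 0.54, adjusted p = 0.0331). Chac1 was the weakest of them and lost this call in 7 of 14 alternatives, with an adjusted p of up to 0.206 (without T3 replicate 1). For Psat1 (−0.65 ± 0.34, adjusted p = 0.193), Trib3 (−0.14 ± 0.52, adjusted p = 0.925), Asns (−0.23 ± 0.42, adjusted p = 0.811) and Ddit3 (0.38 ± 0.39, adjusted p = 0.594) no difference between the steps was called, which does not show that the steps were equal.

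**Figure D2:**
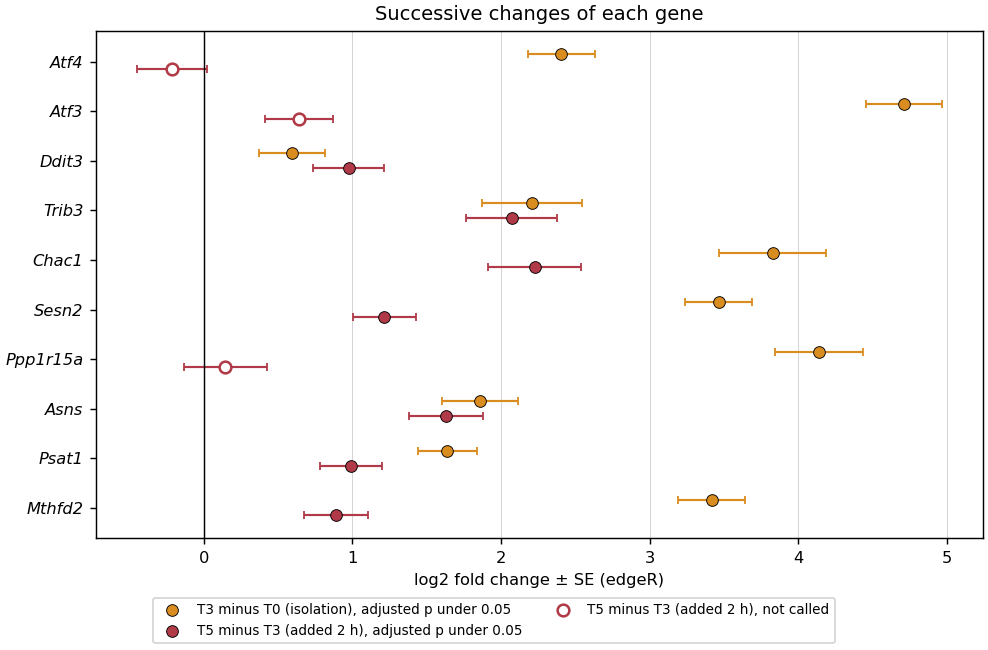
Log2 fold change ± SE of each gene for T3 minus T0 (orange) and T5 minus T3 (red), from edgeR; filled points have an adjusted p under 0.05 and open ones do not. The points lie far apart for Atf4, Atf3 and Ppp1r15a and side by side for Trib3 and Asns, and in Ddit3 the red point is to the right.

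Over both steps all 10 genes were higher in T5 than in T0, where 13.2% of all genes were called higher and 22.5% lower. The median was log2 4.28 for the 10 and 0.18 for all genes, and each T5 replicate exceeded each T0 replicate in all 10, as in 31% of all genes. In T5 against T3 the replicates were separate in this way for 8 of the 10, all but Atf4 and Ppp1r15a, and for 19.3% of all genes.

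Per kb of exonic length, which allows genes to be compared with each other though the feature counted is not given, Atf4 led in each group. In T0 it stood at 22.8 ± 5.25 CPM per kb, above Ddit3 at 8.50 ± 2.23 and Ppp1r15a at 4.67 ± 2.08, and the other 7 genes were between 0.194 and 2.25. In T3 the order was Atf4 (121 ± 9.57), Ppp1r15a (82.1 ± 7.91) and Atf3 (45.9 ± 2.19), followed by Ddit3 (12.8 ± 2.37) and Mthfd2 (11.6 ± 0.96), which differed by less than the SD of Ddit3. In T5 Atf4 (104 ± 0.53), Ppp1r15a (90.8 ± 5.402) and Atf3 (71.5 ± 5.57) still led. Chac1 (26.5 ± 1.27) and Ddit3 (25.2 ± 1.43) then differed by less than the SD of Ddit3, and Asns (3.83 ± 0.06) and Trib3 (3.96 ± 0.23) were lowest.

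Predicted units inside introns of 2 of the genes followed their hosts. Gm12981 lies on the same strand as Sesn2 (chromosome 4, 132503561 to 132509649), overlaps none of its exons, and rose from 0.852 CPM in T0 to 6.47 in T3 and 15.6 in T5, with steps of log2 2.93 and 1.27 (adjusted p = 0.00636 for the second). It held 34.7, 23.9 and 24.8% of the level of Sesn2 in the 3 groups. Gm43890 in Mthfd2 (chromosome 6, 83314145 to 83316943) rose from 0.291 to 5.02 and 7.65 CPM, by log2 4.04 and then 0.61, the latter not called (adjusted p = 0.349), and held 7.73, 12.5 and 10.2% of the level of its host. Gm24748 inside Atf3 and Gm3329 inside Psat1 held at most 0.0909 CPM in any library. Whether the reads of the former 2 come from unspliced host RNA or from separate transcripts was not tested.

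**Figure D3:**
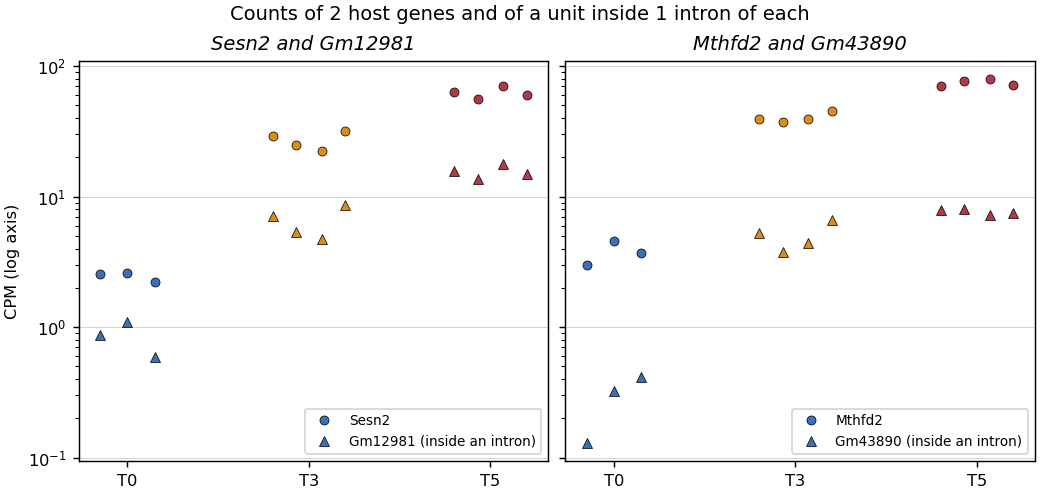
Level in CPM (log axis) of Sesn2 and Mthfd2 (circles) and of the predicted units Gm12981 and Gm43890 inside 1 intron of each (triangles) in every library. Each unit stays below its host, and is lowest in T0 and highest in T5.

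Genes with a pattern most like that of the 3 transcription factors were sought by the root mean square difference of centred log2 CPM over the 9 replicates, among 6885 well expressed genes. For Atf4 they were Trio (difference 0.08), Pde12, Eif4e, Psd and Vcan (0.11 to 0.13), of which Eif4e encodes the cap-binding translation factor. For Atf3 they included Cd44 (0.34), Noct, Tnfrsf12a and Egr1 (each 0.44), so no gene was as near to Atf3 as the nearest 5 were to Atf4. For Ddit3 they were Ankrd12 (0.17), Nfe2l2, Sars, Rabepk and Rhbdf2 (0.17 to 0.19), of which Nfe2l2 encodes the antioxidant factor NRF2 and Sars a synthetase that ATF4 is known to control.

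Of 24 genes for eIF2 kinases, eIF2, eIF2B and their regulators, which act upstream of Atf4, 9 were higher and 6 lower in T3 than in T0 (37.5 and 25%, with 15 and 22.9% of all genes; median log2 0.18). Oma1 (log2 −2.36 ± 0.21, 31.3 to 6.08 CPM) and Dele1 (−2.05 ± 0.21, 27.2 to 6.54 CPM), which carry mitochondrial stress to the kinase HRI, fell, as did Eif2d, a noncanonical initiation factor (−1.77), Eif2ak3, the kinase PERK (−1.04), Eif2ak2, the kinase PKR (−0.86), and Eif2b4, an eIF2B subunit (−0.56, adjusted p = 0.0491, lost in 10 of 14 alternatives). Eif2s2, the beta subunit of eIF2, rose from 28.8 to 123 CPM (log2 2.10 ± 0.23). From T3 to T5 only Eif2ak3 was called (0.97 ± 0.22, adjusted p = 0.0146, lost in 5 of 12 alternatives), and it was back at 44.0 CPM against 46.3 in T0. Next by p were Dnajc3, an inhibitor of PERK (0.83, adjusted p = 0.0855), and Eif2ak2 (−0.85, adjusted p = 0.102).

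Of 15 bZIP partners and related factors 10 were higher, 2 lower and 3 not called in T3 (median log2 0.83; 15% of all genes were higher and 22.9% lower). The rises were led by Cebpb, a dimer partner of ATF4 (24.9 to 227 CPM, log2 3.19 ± 0.39), Atf5, which is controlled like Atf4 (1.80 ± 0.21), and Cebpg, another partner (1.07 ± 0.21); Creb1 (−0.78) and Jdp2 (−0.91) fell. In T5 against T3 edgeR called 0 of 15, with 3 higher and 1 lower at an unadjusted p under 0.05 and 0 called by DESeq2; the nearest were Nupr1 (0.72, adjusted p = 0.0893), Atf5 (0.61, 0.201) and Nfe2l2 (0.60, 0.245).

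Of 26 further ATF4 and CHOP targets 9 were higher and 4 lower in T3 (34.6 and 15.4%, with 15 and 22.9% of all genes). Their median was log2 0.41. In T5 against T3, 6 of the 26 were higher and 0 lower (median 0.54, with 1.28 and 0.888% of all genes). With upper quartile factors 15 were higher in T3, and without T5 A or B 1 was higher in T5. Gdf15, a secreted stress hormone, rose in both steps: it was at 0.152, 0.155 and 0.177 CPM in T0, 1.25, 2.07, 2.37 and 1.60 CPM in T3 and 41.0, 24.8, 31.1 and 40.2 CPM in T5. Its steps were log2 3.48 ± 0.31 (adjusted p = 8.05e-09) and 4.25 ± 0.25 (adjusted p = 6.57e-10). Sqstm1, an autophagy receptor (2.32 ± 0.25), and Eif4ebp1, a brake on cap-dependent translation (2.23 ± 0.25), rose in T3 and were not called in T5 (adjusted p = 0.976 and 0.649). The second step minus the first had a median of log2 0.02 over the 26 targets. It was called lower for 4 of them, Eif4ebp1, Tnfrsf10b, Sqstm1 and Gadd45a (9.93% of all genes). DESeq2 called 4 of the 26 higher and 5 lower. A second step above the first was called by edgeR for 6 of the 26 targets (12.8% of all genes), namely Stc2, Gpt2, Herpud1, Got1, Ddit4 and Klhl24. They include Stc2, a secreted glycoprotein (−1.85, then 1.15 ± 0.24), and Gpt2, an alanine transaminase (−0.82, then 1.04 ± 0.23), which fell and then rose, and Herpud1 of endoplasmic reticulum degradation (1.28 ± 0.25) and the transaminase Got1 (1.121 ± 0.22), which rose in T5 and were not called in T3 (adjusted p = 0.559 and 0.784). The T5 call of each of these 4 was lost without T5 A or B, with adjusted p between 0.071 and 0.38, and that of Gpt2 in 3 further alternatives. Ddit4, an inhibitor of mTORC1 (−2.26, or −1.52 without T0 replicate 2), and Klhl24 (−1.36) fell in T3 and were not called in T5 against T3 (adjusted p = 0.398 and 0.337). In T0 Ddit4 was at 23.2, 40.6 and 3.62 CPM, the last within its T3 range of 2.80 to 6.27 CPM.

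Genes that supply amino acids to protein synthesis were mostly called in T3 against T0. Of 9 amino acid transporters 5 were higher and 1 lower in T3 (median log2 1.33, with 15 and 22.9% of all genes). In front were Slc7a1, which carries arginine and lysine (28.8 to 360 CPM, 3.64 ± 0.27), and Slc7a5, which carries leucine (3.02 ± 0.30). Slc38a2, which carries small neutral amino acids, came next (2.29 ± 0.22). Slc7a11, the cystine carrier, fell (703 to 221 CPM, −1.67 ± 0.24). In T5 against T3, 2 of 9 rose, Slc1a4 (1.26 ± 0.23, adjusted p = 0.00271) and Slc6a9 (1.18 ± 0.24, adjusted p = 0.00795), and neither was called without T5 A or B (adjusted p between 0.0545 and 0.243). Slc7a3 was at 0.72 (adjusted p = 0.232). Of all genes 1.28% were called higher in T5 against T3. Of 12 aminoacyl-tRNA synthetase genes, which load amino acids onto tRNA, 9 were higher and 0 lower in T3 (median 1.4). The shares of all genes were 15 and 22.9%. Among the 9 were Cars (36.5 to 240 CPM, 2.72 ± 0.24), Yars (2.31 ± 0.23) and Aars (2.27 ± 0.21). In T5 against T3 edgeR called 0 of 12, with 4 higher at an unadjusted p under 0.05 and 0 called by DESeq2, the nearest being Sars (0.84 ± 0.23, adjusted p = 0.0502), Nars (0.62, 0.244) and Gars (0.57, 0.333). Some of the genes named from the lists share exonic bases with another gene, so their counts are uncertain. They are Dele1, Eif2ak3, Eif2ak2, Eif2b4, Eif2d, Atf5, Cebpb, Cebpg, Jdp2, Sqstm1, Gadd45a, Slc6a9, Cars, Aars and Yars.

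**Figure D4:**
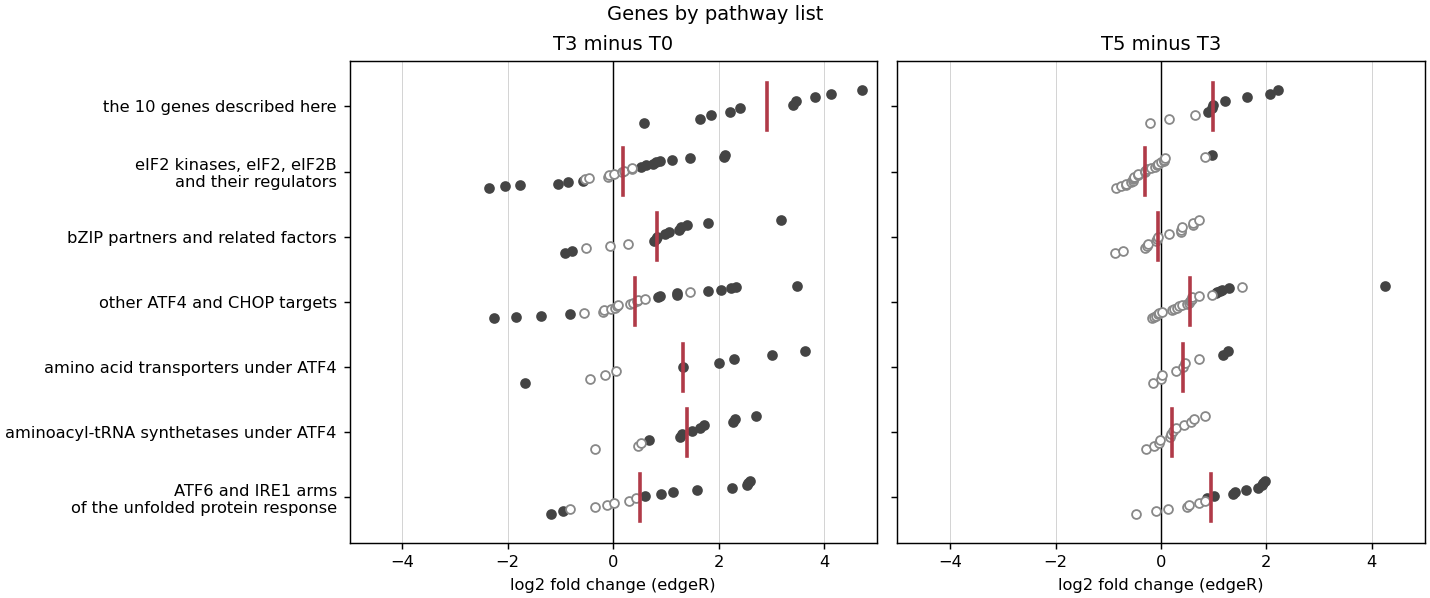
Log2 fold changes of the 10 genes and of the genes of 6 pathway lists for T3 minus T0 (left) and T5 minus T3 (right); filled points were called at an adjusted p under 0.05, open ones were not, and red bars are medians. On the left the medians run from 0.18 (eIF2 machinery) to 2.91 (the 10 genes), and on the right the synthetases and bZIP factors hold open points only.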

How the data were processed

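The authors deposited raw counts of reads per gene for 11 libraries (3 T0, 4 T3 and 4 T5), each count a whole number. Per the labels' protocols, RNA of fixed cells was made into directional libraries from total RNA and read as 65-bp single ends. Per the submitters' processing notes STAR 2.5.0a, featureCounts 1.4.6-p3 and DESeq2 1.12.3 were used with GRCm38; the annotation, the feature counted and the strand setting are not given in the sources used here. Genes that overlap another gene are therefore uncertain. Symbols came from GENCODE vM21, which matched 48349 of 48709 identifiers.

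Each column went to the group its name gives, and replicates carry the column's number or letter. Tests used edgeR 4.0.16 (R 4.3.3; two-sided quasi-likelihood F test, TMM, filterByExpr with the group, 3 groups in 1 fit, no covariate); the SE was taken as the log2 change over the square root of F. The 10 genes and the gene lists were chosen with earlier results of these data known. Named genes beside the 10 are, per list, the 3 smallest p of each step and any called gene against the majority of its list, and per transcription factor the 5 nearest patterns (mean log2 CPM of at least 4), 1 of which is not reported here. The test was tried on simulated counts of 31999 genes, of which 100 were changed 2-fold and 100 4-fold. For T3 against T0 it recovered 32% of 2-fold and 85% of 4-fold changes, and 9.30% of its calls were false. For T5 against T3 these values were 25%, 82% and 10.1%. In the data, T3 against T0 had far more calls (4807 higher and 7332 lower), so these rates need not hold there. Alternatives were DESeq2 (1.42.0), other scalings, no filter, 4 T5 libraries, 2-group fits, a replicate block and leaving out each replicate.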

Additional observations from a re-analysis of the deposited data

How the results depend on the processing

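Every change of the 10 genes from T0 to T3 and from T0 to T5 kept its direction in each alternative run, and the call of Ddit3 in T3 was the only one of these lost. The difference between the steps turned positive for Trib3, where it was not called, without T0 replicate 1 (0.17), T3 replicate 1 (0.07) or T3 replicate 4 (0.17), over a range of −0.73 to 0.17 with 1 replicate left out, and that of Psat1 was called with upper quartile factors (−0.90, adjusted p = 0.0201). Upper quartile factors moved the median log2 change of all genes to 0.32 in T3 against T0 and 0.50 in T5 against T0. They turned 4807 higher and 7332 lower genes of T3 against T0 into 7159 and 5798, gave 7144 higher in T5 against T0, and 4998 lower for the difference between the steps. The cause of these shifts was not tested.

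In T5 against T3, of 411 higher and 284 lower genes, 268 were higher with DESeq2 size factors, 456 lower with upper quartile factors, 695 higher and 518 lower with no filter, 923 and 1199 with 4 T5 libraries, 1348 and 1645 with only these groups, and 688 lower with DESeq2. Of the 10 genes, 4 were called with DESeq2 size factors. Leaving out 1 replicate gave 3 to 6 of the 10, 143 to 346 higher and 41 to 246 lower genes in T5 against T3, 2531 to 8280 higher in T5 against T0, and 2622 to 5944 higher and 1997 to 3984 lower for the difference between the steps. T5 A and B, left out in turn, gave 165 and 143 higher and 59 and 41 lower, and T3 replicate 4 gave 271 and 186. Without T5 A or B 2667 and 2531 were higher in T5 against T0, and without T0 replicate 3 8280.

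Of the lists, with upper quartile factors 15 other targets were higher in T3, and in T5 2 eIF2 genes were higher and 1 lower, 3 bZIP factors and 2 synthetases higher. In T5 with only 2 groups the counts were 2 higher and 6 lower eIF2 genes, 3 higher and 2 lower bZIP factors, 14 higher other targets and 4 higher synthetases. With 4 T5 libraries they were 2 higher and 4 lower eIF2 genes, 3 bZIP factors and 2 synthetases. With no filter 2 eIF2 genes and 1 synthetase were higher; with DESeq2 size factors 0 eIF2 genes were higher, and with DESeq2 2 were lower. Without 1 replicate 0 to 1 eIF2 genes, 1 to 6 other targets and 0 to 2 transporters were higher in T5, and in T3 4 to 7 other targets and 0 to 1 synthetases were lower.

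Whether the numbers of T0 and T3 columns pair the samples is not known. Deviations of same-numbered libraries correlated at −0.168, 0.210 and 0.220. Those of different-numbered libraries ranged from −0.315 to 0.307, so these correlations cannot decide it. With a replicate block 9 of the 10 genes were called in T3 against T0, with 4170 higher and 6053 lower genes in all. No paired analysis was possible for T5 because the numbers of its columns match none of those of T0 and T3. Counting error limits only the lowest values, such as Trib3 in T0.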

Other observations

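The ATF6 and IRE1 arms of the unfolded protein response share the PERK kinase's trigger in the endoplasmic reticulum. Of 16 of their genes, 8 were higher and 2 lower in T3 than in T0 (median log2 0.52, with 15 and 22.9% of all genes). In T5 against T3, 9 of the 16 were higher and 0 lower (median 0.94, with 1.28 and 0.888% of all genes). Only Hspa5 and Hyou1 were called higher in both steps. Hspa5, the chaperone BiP, rose in both steps: it was at 87.1, 96.9 and 82.0 CPM in T0, at 484, 544, 438 and 678 CPM in T3 and at 1707, 1520, 1883 and 1429 CPM in T5 (log2 2.60 ± 0.24, adjusted p = 1.16e-08, and 1.62 ± 0.23, adjusted p = 0.000178). Dnajb9, a cochaperone (2.56 ± 0.23), and Ern1, the sensor IRE1 itself (2.53 ± 0.25), rose from T0 to T3. They were not called in T5 against T3 (adjusted p = 0.129 and 0.47).

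Several chaperone genes of this list were not higher in T3 than in T0 and rose from T3 to T5. Hsp90b1, the chaperone GRP94, was at 211 ± 6.09 CPM in T0, 212 ± 40.4 in T3 and 807 ± 4.64 in T5 (log2 1.93 ± 0.23 for the second step, adjusted p = 1.4e-05). Creld2 went from 6.77 ± 0.62 and 6.24 ± 0.44 to 24.7 ± 2.62 CPM (1.98 ± 0.21, adjusted p = 3.73e-06). Pdia4, a disulfide isomerase, fell from 42.1 to 21.6 CPM (−0.96 ± 0.21, adjusted p = 0.000651) and then rose to 77.5 CPM (1.84 ± 0.23, adjusted p = 2.7e-05), and Sel1l, of endoplasmic reticulum degradation, fell by 1.18 and then rose by 1.00 (adjusted p = 0.0149, lost in 5 of 12 alternatives). Hsp90b1, Pdia4 and Dnajb9 overlap small genes in their exons and are uncertain to that extent.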
